A study of Mus musculus with 20 samples.

Results

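The 10 genes described here are marker genes of fat cells (adipocytes): Adipoq, Lep, Retn, Cfd, Plin1, Cidec, Lpl, Fabp4, Pck1 and Car3. They were taken as a list of gene symbols with no threshold on measured values, and all 10 were present among the 17651 genes of the deposited table. This list and the other gene lists used below were chosen with earlier results of these data known. RNA from whole ovaries of WT mice had been sequenced in 20 libraries, and 5 groups held 4 libraries each. Young mice were 7 to 8 weeks old, and the other groups were adult mice of 27 to 28 weeks with HEP14 and without it, and aged mice of 73 to 74 weeks given HEP14 or vehicle. The group given vehicle is called aged here. HEP14, a small molecule, is an activator of protein kinase C that promotes lysosome formation. The sources used here give neither its dose nor the length of treatment, and the adult group with HEP14 is named in the sample labels but not in the design text. Whether fat around the ovary was trimmed before extraction is not stated either.

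The mouse ovary lies in a thin sac beside the gonadal fat pad, so that adipocytes border it. An adipocyte stores triglyceride in a large lipid droplet, which Plin1 coats and Cidec helps to enlarge. Lpl releases fatty acids from circulating lipoproteins, Fabp4 carries them inside the cell, and Pck1 serves the making of the glycerol backbone onto which they are loaded. Adipocytes also secrete hormones and other proteins, among them adiponectin (Adipoq), leptin (Lep), resistin (Retn in mice) and the complement protease adipsin (Cfd). Car3, a carbonic anhydrase, is abundant in mouse fat. Several of these genes are not restricted to fat cells: Fabp4 is also made by endothelium of small vessels and by macrophages, and Lpl by macrophages and muscle. All 10 are protein-coding genes, and none overlaps another annotated gene. On GRCm38, in the GENCODE M21 annotation, Adipoq at chr16:23146536-23158028, Lep at chr6:29060220-29073877, Retn at chr8:3655770-3660110, Cfd at chr10:79890853-79892655, Lpl at chr8:68880491-68907448, Pck1 at chr2:173153048-173159273 and Car3 at chr3:14863512-14872523 are on the plus strand. Plin1 at chr7:79720218-79732903, Cidec at chr6:113424634-113435760 and Fabp4 at chr3:10204088-10208576 are on the minus strand.

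The deposited values are scores. Over the 20 libraries each gene's values average 0 and have an SD of 1, so a score gives how far a library lies from that gene's mean in SD of that gene. A difference of scores is not a fold change, and the level of one member cannot be set against that of another. The total reads behind the scores are not known. In bulk tissue, fewer cells of a type and less RNA per cell cannot be told apart. The labels do not say that the 4 libraries of a group came from separate animals, so the p-values below measure only the spread between these libraries, which may be technical. The 4 aged libraries stood apart from the rest, with medians over all genes from -0.62 to -0.28 against -0.16 to 0.018 in the other groups, and with 1956 to 3697 genes at a lowest value shared with another library, against 686 to 1218. The lowest score of a gene was shared by libraries in the way that genes without reads would show. The markers of the labelled tissue could not be checked for their level, since scores hold none.

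The fat cell markers were high in the young ovaries and low in nearly all of the others, with aged library 1 as the main exception. The mean score of the 10 members was 1.72, 1.14, 2.34 and 0.51 in young libraries 1 to 4. It was -0.33, -0.57, -0.42 and -0.061 in adult libraries with HEP14 and -0.59, -0.17, -0.77 and -0.78 in adult libraries without it. It was -0.58, -0.65, -0.24 and -0.83 in aged libraries with HEP14 and 1.17, -0.54, -0.63 and 0.28 in aged libraries. Each young library thus lay above every library of the adult, adult with HEP14 and aged with HEP14 groups, and the aged libraries ran from the low range of these groups into the range of the young ones. As group means ± SD (n = 4 each), the members stood at 1.43 ± 0.78 in young, -0.35 ± 0.21 in adult with HEP14, -0.58 ± 0.28 in adult, -0.57 ± 0.25 in aged with HEP14 and 0.071 ± 0.84 in aged ovaries. Young library 3 was the highest and young library 4 the lowest of its group for all 10 members. Aged library 1 was the highest aged library for 9 members, the exception being Retn, where aged library 4 was higher. Adult library 2 was the highest adult library for 9 members, the exception being Plin1.

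The young libraries were spread widely for these genes. The median SD within the young group was 0.765 over the members and 0.279 over all genes. In the adult group with HEP14 it was 0.273 over the members against 0.424 over all genes, and in the aged group with HEP14 it was 0.303 against 0.462. In the adult group (0.433 against 0.447) and in the aged group (0.902 against 0.867) the spread of the members was close to that of all genes.

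**Figure D1:**
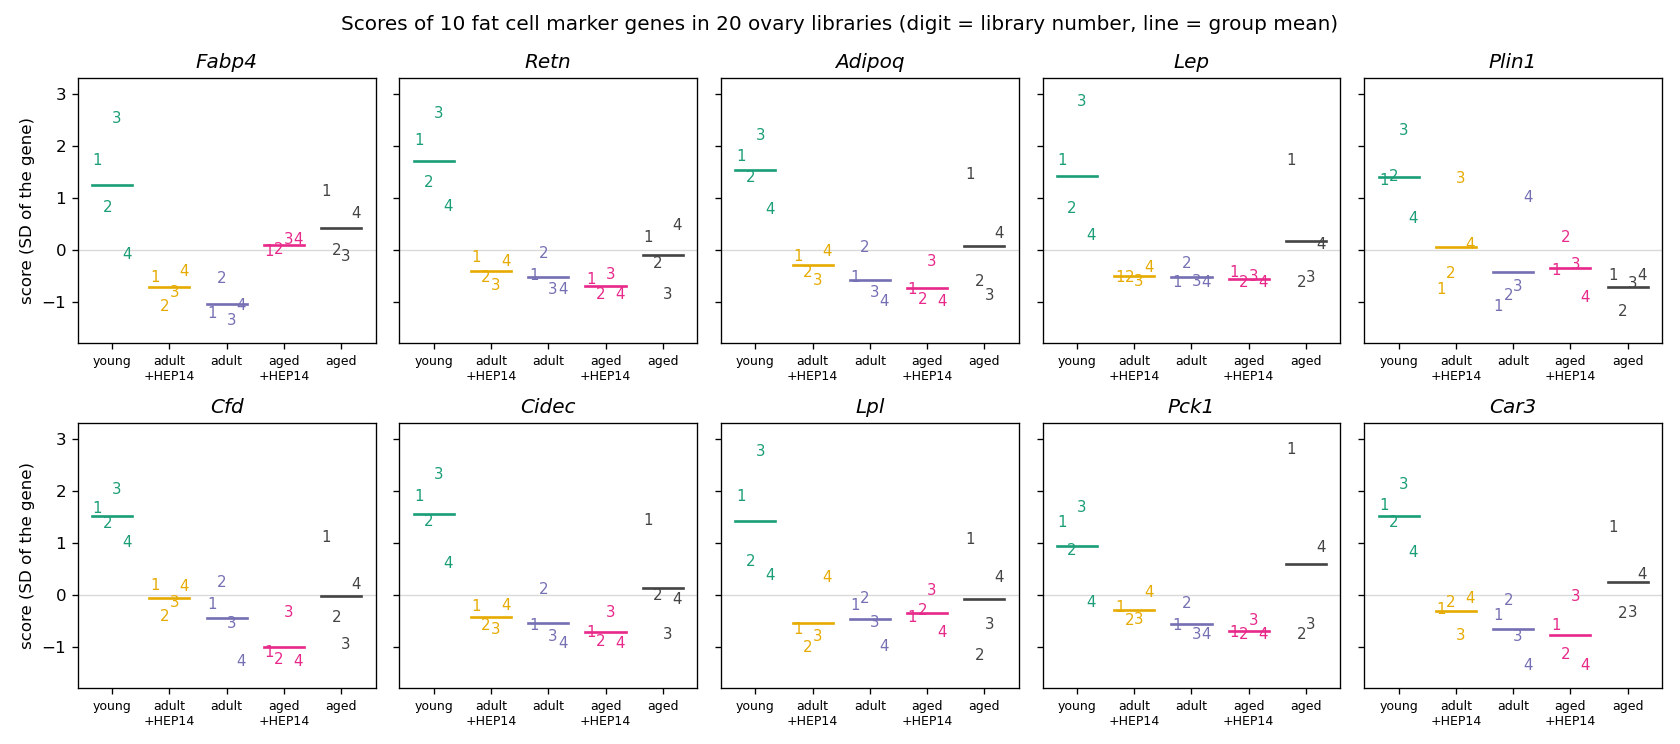
Score (y axis, SD of the gene) of each member in every library, by group along the x axis; each digit is a library number and each line the mean of the 4 libraries. Young libraries lie highest for most members, with library 3 on top in all 10 panels, and aged library 1 stands above the other aged libraries except for Retn, where library 4 is higher, and Plin1, where libraries 1 and 4 are level.

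Among the secreted products, adiponectin, a hormone that raises insulin sensitivity, followed the mean of the members most closely. Adipoq scored 1.8, 1.4, 2.19 and 0.78 in young libraries, -0.12, -0.44, -0.59 and -0.038 in adult with HEP14, -0.54, 0.049, -0.83 and -0.99 in adult, -0.76, -0.96, -0.22 and -0.99 in aged with HEP14 and 1.45, -0.61, -0.88 and 0.32 in aged libraries. Only aged library 1 reached into the young range. Adipoq was at its shared lowest value in adult library 4 and in aged library 4 with HEP14. Leptin, the hormone that reports fat stores to the brain, scored 1.72, 0.80, 2.85 and 0.28 in young libraries, -0.54, -0.53, -0.60 and -0.33 in adult with HEP14, -0.63, -0.26, -0.60 and -0.63 in adult, -0.44, -0.63, -0.51 and -0.63 in aged with HEP14 and 1.73, -0.63, -0.54 and 0.10 in aged libraries. It was at its shared lowest value in adult libraries 1 and 4, in aged libraries 2 and 4 with HEP14 and in aged library 2, while aged library 1 was as high as young library 1. The scores hold no difference of Lep between the libraries at that shared value.

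Resistin, a peptide secreted by mouse adipocytes, set the young ovaries apart most cleanly. Retn scored 2.11, 1.29, 2.62 and 0.83 in young libraries, -0.15, -0.54, -0.69 and -0.22 in adult with HEP14, -0.50, -0.079, -0.75 and -0.75 in adult, -0.57, -0.86, -0.47 and -0.86 in aged with HEP14 and 0.23, -0.26, -0.86 and 0.48 in aged libraries. No library of another group reached the lowest young library. Adipsin, a protease of the alternative complement pathway, scored 1.66, 1.38, 2.03 and 1.0 in young libraries, 0.19, -0.42, -0.15 and 0.16 in adult with HEP14, -0.18, 0.23, -0.55 and -1.28 in adult, -1.11, -1.25, -0.34 and -1.28 in aged with HEP14 and 1.1, -0.44, -0.95 and 0.20 in aged libraries. For Cfd the aged libraries with HEP14 held 3 of the 4 lowest scores, and aged library 1 lay just above the lowest young library.

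Of the droplet proteins, Cidec behaved much like Adipoq. It scored 1.9, 1.41, 2.31 and 0.61 in young libraries, -0.23, -0.58, -0.67 and -0.21 in adult with HEP14, -0.59, 0.11, -0.79 and -0.93 in adult, -0.72, -0.90, -0.34 and -0.93 in aged with HEP14 and 1.43, -0.014, -0.76 and -0.098 in aged libraries. The adult and HEP14-treated libraries all lay below the young ones, and aged library 1 lay among them. Plin1, the perilipin that guards the droplet from lipases, did not follow this order. Its scores were 1.33, 1.4, 2.3 and 0.61 in young libraries, -0.77, -0.46, 1.37 and 0.10 in adult with HEP14, -1.09, -0.88, -0.71 and 1.0 in adult, -0.40, 0.24, -0.29 and -0.91 in aged with HEP14 and -0.50, -1.19, -0.64 and -0.50 in aged libraries. Adult library 4 and adult library 3 with HEP14 were within the young range for Plin1, and all 4 aged libraries, library 1 included, were low. In adult library 4, where Plin1 was at 1.0, 5 other members (Adipoq, Cidec, Cfd, Lep and Pck1) were at their shared lowest value.

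The scores of 4 genes are plotted library by library to show this.

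**Figure D2:**
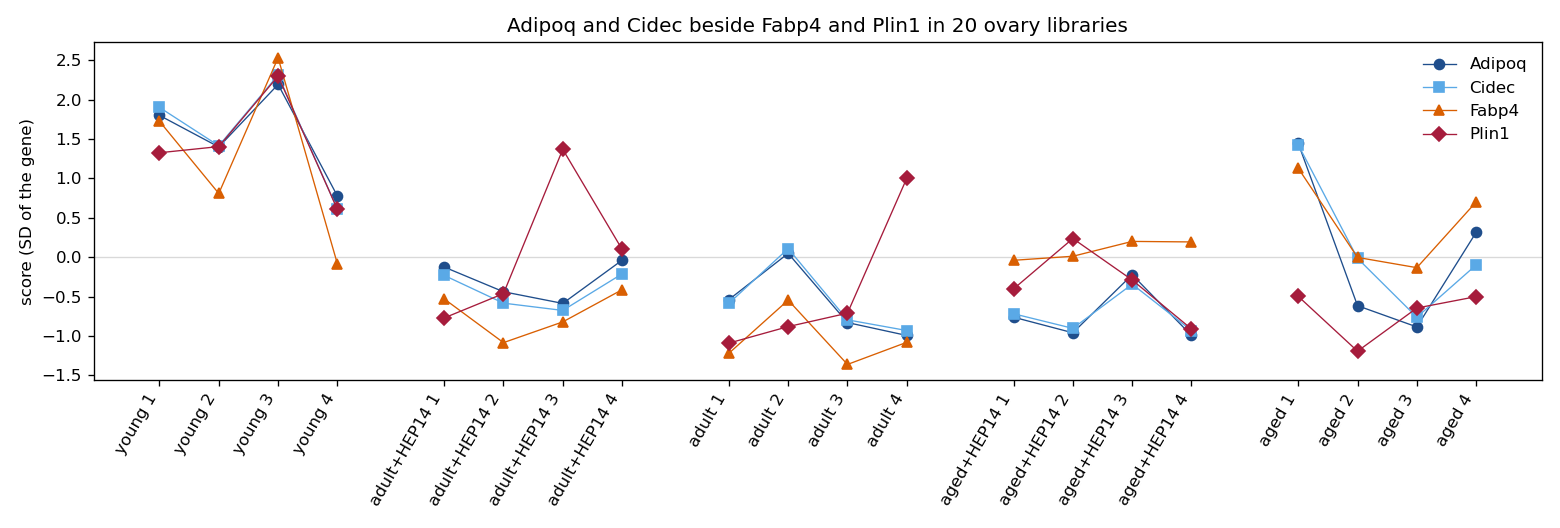
Scores (y axis, SD of the gene) of Adipoq, Cidec, Fabp4 and Plin1 in the 20 libraries (x axis, by group and library number); lines join libraries of a group only to guide the eye. Adipoq and Cidec run together, whereas Plin1 stands alone at 1.37 in adult library 3 with HEP14 and at 1.0 in adult library 4, and Fabp4 stays between -0.039 and 0.20 in the aged libraries with HEP14, where Adipoq and Cidec lie below.

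Among the genes of fatty acid uptake and transport, Lpl scored 1.88, 0.64, 2.76 and 0.38 in young libraries, -0.66, -1.01, -0.80 and 0.34 in adult with HEP14, -0.21, -0.078, -0.53 and -1.0 in adult, -0.43, -0.29, 0.082 and -0.72 in aged with HEP14 and 1.07, -1.17, -0.58 and 0.33 in aged libraries. Young library 4 stood only just above adult library 4 with HEP14, and aged library 1 lay among the young libraries. Fabp4 scored 1.73, 0.81, 2.53 and -0.084 in young libraries, -0.53, -1.08, -0.82 and -0.41 in adult with HEP14, -1.22, -0.54, -1.36 and -1.08 in adult, -0.039, 0.012, 0.20 and 0.19 in aged with HEP14 and 1.13, -0.0024, -0.13 and 0.70 in aged libraries. It was the only member for which all 8 libraries of aged mice, with and without HEP14, lay above all 8 libraries of adult mice. Young library 4 lay within the aged range.

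For Pck1 aged library 1 stood above every young library, and for Car3 it stood within their range. Pck1, phosphoenolpyruvate carboxykinase, scored 1.38, 0.86, 1.68 and -0.14 in young libraries, -0.23, -0.49, -0.47 and 0.052 in adult with HEP14, -0.58, -0.17, -0.76 and -0.76 in adult, -0.73, -0.76, -0.50 and -0.76 in aged with HEP14 and 2.79, -0.76, -0.57 and 0.92 in aged libraries. Its highest score of all was in aged library 1, and it was at its shared lowest value in adult libraries 3 and 4, in aged libraries 2 and 4 with HEP14 and in aged library 2. Car3 scored 1.72, 1.39, 2.13 and 0.81 in young libraries, -0.29, -0.14, -0.77 and -0.061 in adult with HEP14, -0.40, -0.10, -0.80 and -1.36 in adult, -0.59, -1.14, -0.035 and -1.36 in aged with HEP14 and 1.3, -0.35, -0.35 and 0.40 in aged libraries. Its lowest scores were in adult library 4 and in aged library 4 with HEP14. The young libraries lay above all others for Car3 except aged library 1.

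In the order of group means, young ovaries came first for all 10 members. Aged ovaries came next for 9 of them, and adult ovaries with HEP14 came next for Plin1. Between neighbours in that order, the libraries were fully apart for only 2 steps: young above aged for Retn, and aged with HEP14 above adult with HEP14 for Fabp4. Every other pair of neighbouring groups overlapped.

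Promoter windows of the members are shown because most of these genes moved together across the libraries. RefSeq (GRCm38.p6) gave windows of 300 bases, from 250 before the start site to 50 after it, for 7 of the 10 members; Lpl, Fabp4 and Car3 had no entry. Of these, 3 are printed: Adipoq, the member nearest to the common pattern, Plin1, the farthest from it, and Lep, which shares a motif with Plin1. Capitals mark matches to TTGCNNAA, a motif of the C/EBP factors that act in adipocyte formation, or to CCAAT, a common promoter element, on the printed strand or the other one. The windows are at chr16:23146286-23146585 on the plus strand (Adipoq), chr6:29059971-29060270 on the plus strand (Lep) and chr7:79732727-79733026 on the minus strand (Plin1).
Adipoq: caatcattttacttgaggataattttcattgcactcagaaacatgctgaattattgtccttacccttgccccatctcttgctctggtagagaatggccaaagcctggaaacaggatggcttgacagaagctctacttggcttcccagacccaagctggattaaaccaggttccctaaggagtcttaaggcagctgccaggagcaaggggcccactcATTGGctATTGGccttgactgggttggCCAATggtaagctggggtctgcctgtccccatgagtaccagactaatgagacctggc
Lep: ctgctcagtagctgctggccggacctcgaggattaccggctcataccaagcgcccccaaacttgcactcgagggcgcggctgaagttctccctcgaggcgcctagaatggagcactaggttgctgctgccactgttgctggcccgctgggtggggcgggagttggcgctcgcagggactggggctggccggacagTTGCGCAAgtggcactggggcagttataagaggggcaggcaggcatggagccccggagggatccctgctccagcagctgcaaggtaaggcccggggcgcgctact
Plin1: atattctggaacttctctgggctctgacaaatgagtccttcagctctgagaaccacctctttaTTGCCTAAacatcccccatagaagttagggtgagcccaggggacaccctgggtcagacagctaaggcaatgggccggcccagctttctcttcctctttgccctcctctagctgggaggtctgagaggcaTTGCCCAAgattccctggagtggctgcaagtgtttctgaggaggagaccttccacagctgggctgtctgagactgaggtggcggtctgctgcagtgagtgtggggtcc
TTGCNNAA was found on either strand in 2 of the 7 members, Lep at position -55 and Plin1 at -187 and -58 from the start site, and in 10.8% of 32851 promoters. CCAAT was found in 1 of the 7, Adipoq, on the minus strand at -34 and -27 and on the plus strand at -7, and in 37.4% of all promoters. TATAAA and AGGTCA, the half-site of nuclear receptors, were found in none of the 7, and in 13.6% and 16.3% of all promoters. The RefSeq start site of Plin1 used here lies 127 bases from the start of the gene in the GENCODE annotation. A match of letters is a description and shows no binding.

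Adult ovaries were compared with young ones first. The scores of 9 of the 10 members fell, by the criterion of an adjusted p under 0.05 in limma; 9.92% of all genes were called, 7.17% as lower. The 4 secreted products were all among them: Retn stood at -0.52 ± 0.32 in adult against 1.71 ± 0.80 in young ovaries (SD, n = 4 each; difference -2.23 ± 0.37, SE; adjusted p = 0.00197, limma), and Adipoq at -0.58 ± 0.46 against 1.54 ± 0.60 (difference -2.12 ± 0.43, adjusted p = 0.00635, limma). Cfd differed by -1.96 ± 0.41 (adjusted p = 0.00737) and Lep by -1.94 ± 0.48 (adjusted p = 0.0172, limma). Both droplet proteins fell, Cidec by a difference of -2.11 ± 0.42 (adjusted p = 0.00555) and Plin1 by one of -1.83 ± 0.49 (adjusted p = 0.0249, limma). The largest difference of a member was that of Fabp4, at -1.05 ± 0.36 in adult against 1.25 ± 1.13 in young ovaries (-2.3 ± 0.43, adjusted p = 0.00401, limma), although sizes in SD of a gene do not rank expression changes. Lpl differed by -1.87 ± 0.51 (adjusted p = 0.0257) and Car3 by -2.18 ± 0.41 (adjusted p = 0.0042, limma). Pck1 did not pass, at -0.57 ± 0.28 in adult against 0.94 ± 0.80 in young ovaries (difference -1.51 ± 0.55, adjusted p = 0.082, limma).

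Adult and young libraries did not overlap for 9 members, all but Plin1; 16.5% of all genes were lower without overlap. For those 9 the exact two-sided permutation test of 4 libraries against 4 gave 0.0286, the smallest p it can give, and for Plin1 it gave 0.0571. The median difference was -2.04 over the members and -0.0058 over all genes. Fabp4, Retn, Adipoq, Cfd, Cidec and Car3 passed in all 13 alternatives computed for this comparison. Lep, Plin1 and Lpl lost their calls without young library 1 (adjusted p of 0.0583, 0.0619 and 0.086, limma) and without young library 3 (0.0641, 0.0858 and 0.0954), Plin1 also without adult library 1, 2 or 3 (0.0532 to 0.0802) and Lpl without adult library 2 or 4 (0.0502 and 0.0664). Pck1 passed without young library 4 (0.0476), in a fit of the 2 groups alone (0.0297) and with group-wise weights (0.0071). Over all genes, more were also called in the fit of the 2 groups alone and with group-wise weights.

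Aged ovaries were compared with young ones to cover the ends of the age range. The scores of 8 members fell, while 74.3% of all genes in the table were called in this comparison, 41.3% as lower. Plin1 was at -0.71 ± 0.33 in aged against 1.41 ± 0.69 in young ovaries (difference -2.12 ± 0.49, adjusted p = 0.000698, limma). Retn was at -0.10 ± 0.59 against 1.71 ± 0.80 (-1.82 ± 0.37, adjusted p = 0.000198, limma). For the other 8 members the aged and young libraries overlapped; 35.4% of all genes were lower without overlap. Cfd (-1.54 ± 0.41, adjusted p = 0.0023), Adipoq (-1.48 ± 0.43, 0.00444), Cidec (-1.42 ± 0.42, 0.00469) and Car3 (-1.26 ± 0.41, 0.00946) also passed in limma, with aged library 1 inside the young range for each. Lpl (-1.5 ± 0.51, adjusted p = 0.0115) and Lep (-1.25 ± 0.48, 0.0246) passed as well. Fabp4 differed by -0.82 ± 0.43 (adjusted p = 0.089) and Pck1 by -0.35 ± 0.55 (adjusted p = 0.576, limma), and neither passed. The median difference was -1.45 over the members and -0.41 over all genes. Setting the library medians equal left 5 members lower, as Lep, Lpl and Car3 lost their calls (adjusted p of 0.137, 0.0615 and 0.0782, limma), and turned Pck1 to 0.075. Group-wise weights left 4, ending the calls of Cidec (0.0545), Car3 (0.0768), Lpl (0.134) and Lep (0.181), and the fit of the 2 groups alone ended those of Lpl (0.0761) and Lep (0.146). Lep also missed the threshold without young library 1 or 3 (0.0602 and 0.133) and without aged library 2 or 3 (0.0848 and 0.0804), and Lpl without young library 3 (0.0623) or aged library 2 (0.051). Without aged library 1, Fabp4 (0.0377) and Pck1 (-1.08, 0.023) passed as lower, and Fabp4 also passed without young library 4 (0.00826); Pck1 turned to 0.10 without aged library 2 and to 0.038 without aged library 3.

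**Figure D3:**
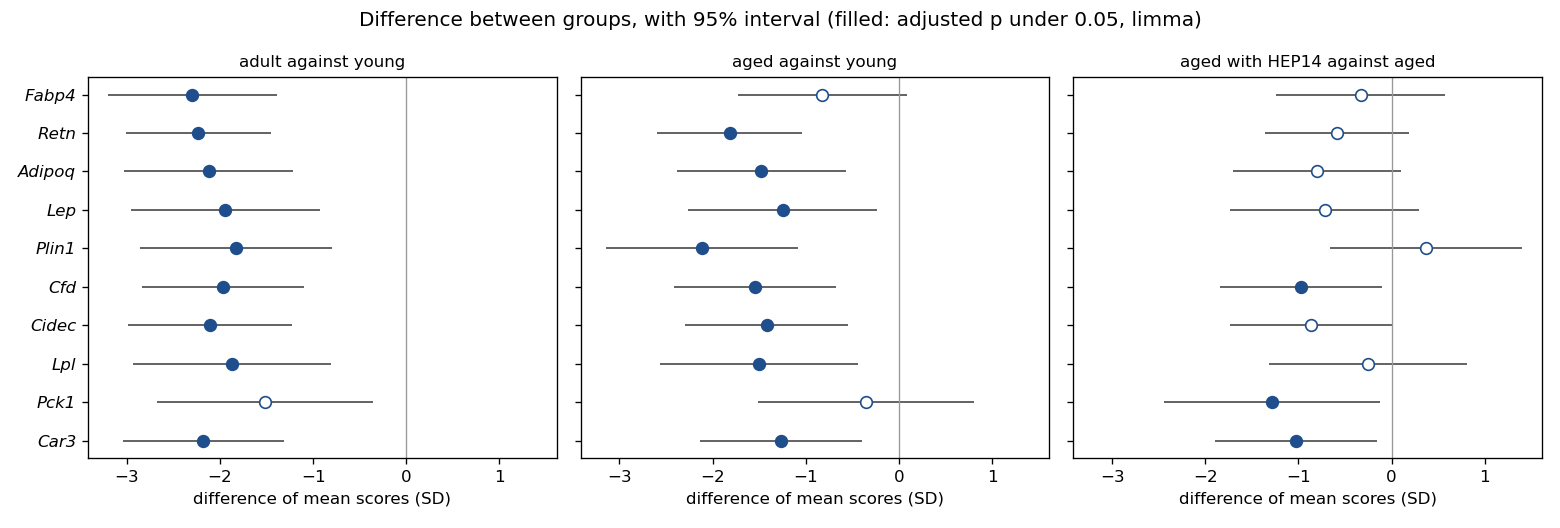
Difference of mean scores (x axis, SD of the gene) for each member (y axis) in 3 comparisons, with lines for the 95% interval from limma and filled points for an adjusted p under 0.05. In adult against young ovaries 9 points are filled and all 10 lie below 0, in aged against young ovaries 8 are filled, and in aged ovaries with HEP14 against aged ovaries 3 are filled (Cfd, Pck1 and Car3) and Plin1 lies above 0.

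Between aged and adult ovaries only Fabp4 passed, as higher. It stood at 0.42 ± 0.60 in aged against -1.05 ± 0.36 in adult ovaries, with no overlap (difference 1.47 ± 0.43, adjusted p = 0.0051, limma). Over all genes 66.8% were called, 31.1% as higher, and 21.8% were higher without overlap. The difference of Car3 was 0.91 ± 0.41 (adjusted p = 0.056) and that of Pck1 1.16 ± 0.55 (adjusted p = 0.0686, limma). The 95% intervals of the other 7 members included 0, with the lowest bound that of Plin1 (-1.31 to 0.73) and the highest that of Lep (-0.31 to 1.7). Fabp4 lost its call with group-wise weights (adjusted p of 0.152, limma). Setting the library medians equal added Cidec (0.0428), Pck1 (0.0236) and Car3 (0.0125) as higher and turned Plin1 to 0.061. Car3 also passed without adult library 2 (0.0368), aged library 2 (0.0291) or aged library 3 (0.0304), Pck1 without aged library 2 or 3 (0.0142 and 0.0211), and Cidec without aged library 3 (0.0442). This comparison shares its adult libraries with the comparison of adult with young ovaries, and its aged libraries with that of aged with young ovaries.

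Fabp4 is also a gene of endothelium and macrophages, whose marker lists are given beside it. Of 10 endothelial genes in the table, 0 were higher and 3 lower in aged than in adult ovaries, and of 10 macrophage genes 2 were higher and 2 lower; of all genes 31.1% were called as higher and 35.7% as lower. The mean score of the endothelial list was 0.49, -0.42, -1.11 and -1.06 in aged libraries, against 0.93, 1.16, -0.61 and -0.15 in adult libraries. The mean score of the macrophage list was 1.23, -1.22, -0.79 and -0.13 in aged libraries, against 0.27, -0.16, -0.88 and 0.47 in adult libraries. Both lists overlapped between the groups, and aged library 1, the highest for Fabp4, was also the highest aged library for both. The part of these cells in the Fabp4 result was not tested. The number of endothelial genes called lower was 7 without aged library 1 and 5 without adult library 3, and that of macrophage genes was 4 without aged library 1.

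HEP14 was then compared with its control at each age. In adult ovaries no member passed, against 0.00567% of all genes (1 gene), and none had an unadjusted p under 0.05 in limma. All 10 members overlapped between the groups, whereas 0.776% of all genes were higher and 0.652% lower without overlap, and the exact two-sided permutation test gave no p under 0.171. Adipoq was at -0.30 ± 0.26 in adult ovaries with HEP14 and -0.58 ± 0.46 in adult ovaries, a difference of 0.28 ± 0.43 with a 95% interval of -0.61 to 1.18. The differences ran from -0.078 for Lpl (interval -1.13 to 0.97) to 0.48 for Plin1 (interval -0.54 to 1.5), and 9 of the 10 were above 0. The median difference was 0.28 over the members and -0.0006 over all genes. No member passed in any of the 13 alternatives; Lpl, Lep and Cidec, all near 0, changed sign when single libraries were left out.

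In aged ovaries with HEP14 the scores of 3 members fell relative to aged ovaries, where 62.5% of all genes were called, 29.3% as lower. A count of 3 in 10 is close to that share of lower genes, so it does not set the members apart. Car3 was at -0.78 ± 0.59 with HEP14 and 0.25 ± 0.78 in aged ovaries (difference -1.03 ± 0.41, adjusted p = 0.0357, limma). Cfd was at -1.0 ± 0.45 and -0.023 ± 0.88 (-0.97 ± 0.41, adjusted p = 0.0452, limma). Pck1 was at -0.69 ± 0.13 and 0.59 ± 1.65 (-1.28 ± 0.55, adjusted p = 0.049, limma). The libraries of the 2 groups overlapped for all 10 members, while 20.5% of all genes were lower without overlap, and no exact two-sided permutation p was under 0.0857. Cidec differed by -0.86 ± 0.42 (adjusted p = 0.0774) and Adipoq by -0.80 ± 0.43 (adjusted p = 0.11, limma), and neither passed. Retn, Lep, Fabp4 and Lpl had differences of -0.59, -0.72, -0.33 and -0.25 that did not pass, and Plin1 differed by 0.37 (interval -0.65 to 1.39). The median difference was -0.76 over the members, against 0.31 over all genes.

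These calls depended on single libraries. Without aged library 1 no member passed, and the differences were -0.68 for Car3 (adjusted p = 0.136, limma), -0.60 for Cfd (0.176) and -0.55 for Pck1 (0.252), while Lpl turned to 0.13. No member passed without aged library 4 or without library 2 or 4 of the aged group with HEP14 (adjusted p of 0.0679 to 0.112 over the 3 genes, limma). Without library 1 of the aged group with HEP14, Cfd (0.0851) and Pck1 (0.0822) lost their calls, and without its library 3 Pck1 did (0.0644). Without aged library 3, 5 members passed, with Cidec (0.0217) and Adipoq (0.0305) added. None passed in a fit of the 2 groups alone (0.103 to 0.175) or with group-wise weights (0.153 to 0.194), Pck1 missed with robust moderation (0.0516), and 6 passed with library medians set equal, with Cidec (0.0201), Adipoq (0.0286) and Retn (0.033) added.

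Markers of other tissues went in both directions in aged ovaries with HEP14 relative to aged ovaries. Of 9 genes of the surface epithelium and mesothelium 3 fell and 2 rose, with a median difference of -0.82. The number that fell was 2 without aged library 1. These counts stand beside 29.3% of all genes called as lower and 33.2% as higher. Among those that fell were Msln, mesothelin (-2.12 ± 0.39, adjusted p = 0.00011), and Upk1b, a uroplakin (-1.8 ± 0.39, 0.000528, limma). Lrrn4 and Krt8 went the other way. Lrrn4 scored -0.53, -0.69, 1.21 and 0.72 in aged libraries with HEP14, against -2.34, -1.91, -0.85 and -0.81 in aged libraries. Krt8 scored 0.52, 0.46, 0.73 and -0.23 in aged libraries with HEP14, against -0.18, -2.21, -1.02 and -2.29 in aged libraries. The mean score of this list was -0.20, -0.32, 0.55 and -0.15 in aged libraries with HEP14, against 1.48, -0.18, -0.033 and 0.037 in aged libraries. Aged library 1 was the highest aged library for this list, as it was for 9 of the fat cell members. Of the 5 skeletal muscle genes measured, 2 fell and 1 rose, with a median difference of -1.39, and 1 fell in a fit of the 2 groups alone. Its mean score was -0.044, 0.20, -0.28 and -0.35 in aged libraries with HEP14, against 0.75, 0.14, 0.58 and 1.27 in aged libraries, with library 4 the highest of the aged group. The part of these tissues in the difference of the fat cell markers was not tested.

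The difference between the effects of HEP14 at the 2 ages was tested directly, and no member passed, while 47.3% of all genes did. All 10 members had a difference below 0, and 2 of them, Car3 (-1.38 ± 0.58, adjusted p = 0.0575) and Cfd (-1.36 ± 0.58, adjusted p = 0.0593), had an unadjusted p under 0.05 in limma. The value of Pck1 was -1.56 ± 0.78 (adjusted p = 0.104, limma). With library medians set equal, Car3 (0.0232) and Cfd (0.0263) passed. Both also passed without adult library 2 (0.0425 and 0.0368), without library 3 of the aged group with HEP14 (0.0303 and 0.036), and without aged library 2 (0.0327 and 0.0441) or 3 (0.0339 and 0.0189). Car3 alone passed without library 3 of the adult group with HEP14 (0.0488), and Pck1 passed without aged library 2 (0.0311) or 3 (0.0415).

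Aged ovaries with HEP14 were also set against young ones. The scores of 9 members fell, with 15.9% of all genes called, 10.5% as lower. Cfd was at -1.0 ± 0.45 in aged ovaries with HEP14 and 1.52 ± 0.43 in young ovaries (-2.52 ± 0.41, adjusted p = 0.000843, limma). Retn differed by -2.4 ± 0.37 (adjusted p = 0.000522), Cidec by -2.28 ± 0.42 (0.00178), Car3 by -2.29 ± 0.41 (0.00159), Adipoq by -2.28 ± 0.43 (0.00215) and Lep by -1.97 ± 0.48 (0.00951, limma); these 6 passed in all 13 alternatives. Plin1 (-1.75 ± 0.49, adjusted p = 0.0197), Lpl (-1.76 ± 0.51, 0.0227) and Pck1 (-1.63 ± 0.55, 0.0487) passed in limma too. Fabp4 did not, at 0.092 ± 0.12 in aged ovaries with HEP14 and 1.25 ± 1.13 in young ovaries (-1.15 ± 0.43, adjusted p = 0.0713, limma), and it was the only member whose libraries overlapped; 16.8% of all genes were lower without overlap. The median difference was -2.12 over the members and -0.012 over all genes. Pck1 lost its call in 10 of the 13 alternatives, among them each that left out a single library except young library 4 (adjusted p of 0.0577 to 0.142, limma). Lpl missed without young library 1 (0.0736) or 3 (0.096) or library 2 (0.05) or 4 (0.0719) of the aged group with HEP14, and Plin1 without young library 3 (0.0764) or that library 4 (0.0718). Fabp4 passed without young library 4 (0.0144) and with group-wise weights (0.0443), which also called more of all genes. The young libraries are shared with the other comparisons against young ovaries, and the aged libraries with HEP14 with the comparison against aged ovaries.

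Likeness between genes was measured as the mean absolute difference of their scores over the 20 libraries. Adipoq and Cidec were the closest pair of members, at 0.128. Adipoq was also the nearest member to the mean of all 10, at 0.157, and Plin1 the farthest, at 0.533, followed by Fabp4 at 0.432; the median over all genes was 0.997. Plin1 was the farthest member from each of the other 9, and its own nearest member was Retn, at 0.602. Outside the list, Plin1 was nearest to Cryab, a small heat shock protein, at 0.402. Among 13658 genes searched, the 5 nearest to the mean of the members were Adrb3 (0.203), Orm1 (0.258), Atp6v0a4 (0.265), Pnpla3 (0.268) and Slc7a10 (0.282). Adrb3, the adrenergic receptor through which fat cells are told to release fatty acids, was also the nearest gene outside the list to Lep, at 0.143. Adrb3 scored 1.85, 0.92, 2.52 and 0.32 in young libraries, -0.52, -0.63, -0.65 and -0.18 in adult with HEP14, -0.63, -0.45, -0.63 and -0.74 in adult, -0.74, -0.71, -0.63 and -0.74 in aged with HEP14 and 1.81, 0.19, -0.54 and 0.16 in aged libraries. Young library 3 was its highest, and aged library 1 stood with the young libraries. Adrb3 was picked here by its likeness to the members over these same libraries, so this shared order is no separate evidence.

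Other white fat markers were mostly lower in adult than in young ovaries as well, whereas other lists tied to fat were mixed. Of 12 other white fat markers, each of them measured here, 9 fell and 0 rose, with a median difference of -1.83; of all genes 7.17% were called as lower and 2.75% as higher, and their median difference was -0.0058. They included Gpd1, a glycerol phosphate dehydrogenase (-2.25 ± 0.42, adjusted p = 0.0042), Adig, adipogenin (-2.15 ± 0.43, 0.00585), Hcar1, the lactate receptor of adipocytes (-2.03 ± 0.43, 0.00737), and Adrb3 (-2.02 ± 0.44, 0.00896, limma). The number that fell was 5 without young library 1 and 5 without young library 3. Mrap went the other way without passing, at 0.093 ± 0.35 in adult against -1.27 ± 1.3 in young ovaries. Among 7 genes of insulin response, with a median difference of -0.31, 1 fell: Slc2a4, the insulin-responsive glucose transporter (-2.32 ± 0.40, adjusted p = 0.00256, limma). Of 5 other hormones of fat, 1 fell: Rbp4, the retinol carrier (-2.3 ± 0.39, adjusted p = 0.00219, limma). The median difference of these hormones was 0.08, and Nampt stood at 0.75 ± 0.69 in adult against -0.27 ± 0.32 in young ovaries. Of 5 brown fat genes in the table, out of 12 listed, 3 fell: Cox8b (-2.14 ± 0.42, adjusted p = 0.00558), Cidea (-2.05 ± 0.45, 0.00958) and Dio2 (-2.01 ± 0.37, 0.00335, limma). The other brown fat genes had higher means in adult than in young ovaries: Kcnk3 (0.53 against -0.92) and Cox7a1 (-0.038 against -0.57). Neither passed.

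Lists that serve lipid metabolism in many tissues did not move as one in this comparison. Of 14 genes of fatty acid and triglyceride synthesis 3 fell, with a median difference of -0.85. Over all genes the median was -0.0058, and 7.17% were called as lower. No gene of the synthesis list fell without young library 1, young library 3, or adult library 2, 3 or 4. Without adult library 1, 1 fell, and without young library 4, 6 fell. Fasn, fatty acid synthase, scored 0.068, -0.051, -0.64 and -0.20 in adult libraries, against 1.98, 0.22, 3.23 and -0.084 in young libraries. It overlapped between the groups and did not pass (difference -1.54 ± 0.52, adjusted p = 0.0595, limma), but passed without young library 2 (0.033) or 4 (0.0171) and with group-wise weights (0.049). Of 7 other droplet proteins 0 fell and 2 rose, Plin4 (1.8 ± 0.51, adjusted p = 0.031) and Plin5 (1.84 ± 0.57, 0.0441, limma), perilipins of other tissues as well as fat. Plin4 lost its call without young library 1, 2 or 4 or adult library 1, 2 or 3 (adjusted p of 0.0565 to 0.077), and Plin5 without young library 1, 3 or 4 or the same 3 adult libraries (0.0934 to 0.12, limma). Plin2, the perilipin of most cells, differed by -0.26 ± 0.32 (adjusted p = 0.655), and the hormone-sensitive lipase Lipe by 0.33 ± 0.48 (adjusted p = 0.707, limma). Of 7 receptors of fat hormones, 0 passed in either direction; in a fit of the 2 groups alone 1 was higher and 2 were lower, and with group-wise weights 1 was higher and 1 lower. Cebpa, a transcription factor of adipocyte formation, differed by -0.97 ± 0.40 (adjusted p = 0.119, limma) and passed with group-wise weights (0.0297). Scd1, a fatty acid desaturase, differed by -1.28 ± 0.46 (0.0772, with 0.0432 under group-wise weights and 0.0214 without young library 4), and the fatty acid transporter Cd36 by -0.44 ± 0.51 (adjusted p = 0.619, limma). Gpihbp1, which anchors Lpl to capillaries, differed by -0.63 ± 0.56 (adjusted p = 0.497, limma). Of 11 genes of fatty acid uptake, Cd36 and Gpihbp1 included, 1 fell, with a median difference of -0.43.

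Markers of other tissues in or next to the ovary moved in the same comparison; the shares over all genes were 7.17% lower and 2.75% higher. Of 9 oviduct genes, 4 fell in adult ovaries, among them Ovgp1, the oviductal glycoprotein (-2.06 ± 0.47, adjusted p = 0.0115), and Pax8 (-1.99 ± 0.47, 0.0141, limma). The count was 1 without young library 1, and 2 without young library 3, adult library 1 or adult library 2; Ovgp1 itself missed without young library 1 (0.0529). The mean oviduct score was -0.69, -0.45, -0.30 and -0.60 in adult libraries, against 2.1, 1.0, 0.81 and -0.50 in young libraries. Young library 4 was the lowest young library for both oviduct and fat markers, whereas the highest was library 1 for oviduct and library 3 for fat. Of 8 smooth muscle genes 1 fell, Myh11 (-2.16 ± 0.49, adjusted p = 0.0108, limma). The list mean lay between -0.50 and -0.18 in adult libraries, against 0.63 to 1.05 in young libraries. Of its genes, 7 were lower in a fit of the 2 groups alone and 7 with group-wise weights, where more of all genes were called too. In the opposite direction, 7 of 8 luteal and steroidogenic genes rose, among them Ptgfr (2.4 ± 0.37, adjusted p = 0.00104) and Scarb1 (2.24 ± 0.44, 0.00504, limma), with list means of 0.33 to 0.94 in adult libraries, against -1.86 to -0.99 in young libraries. The part of oviduct, smooth muscle and luteal tissue in the difference of the fat cell markers was not tested. Among the aged libraries with HEP14, library 3 was the highest for both lists, with an oviduct mean of 1.71 against -0.42 to -0.22 in the other 3, and a fat cell mean of -0.24 against -0.83 to -0.58.

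**Figure D4:**
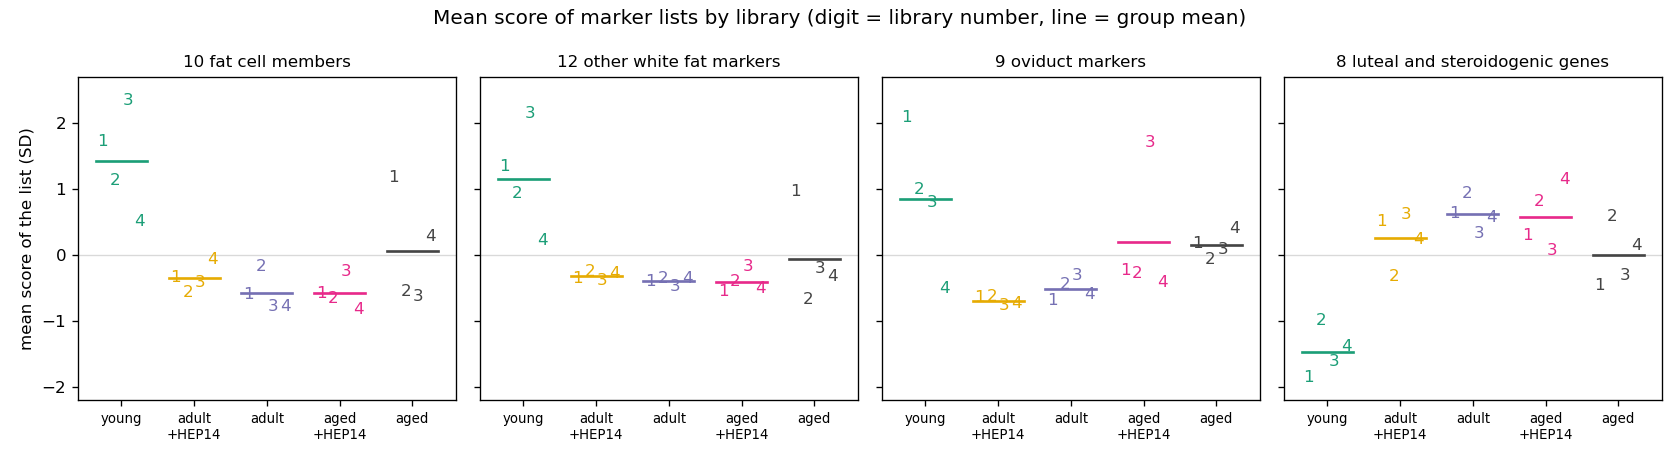
Mean score (y axis, SD) of 4 marker lists in every library, by group along the x axis; each digit is a library number and each line the group mean. Fat cell members and other white fat markers share the order of the young libraries and a high aged library 1 (1.17 and 0.97), the oviduct list is highest in young library 1 and in aged library 3 with HEP14, and the luteal list is lowest in the young libraries.

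In aged ovaries with HEP14 against aged ovaries, other genes tied to fat went in both directions. Of all genes, 29.3% were called as lower and 33.2% as higher in this comparison. Of the 12 other white fat markers 2 fell, Aqp7, the glycerol channel of adipocytes (-1.4 ± 0.53, adjusted p = 0.0273), and Adrb3 (-1.11 ± 0.44, 0.0341, limma). Aqp7 lost its call without aged library 1 (0.132) or 4 (0.0609) or library 1 of the aged group with HEP14 (0.062), and Adrb3 without aged library 1 (0.15) or any one library with HEP14 (0.0519 to 0.0608). Both also missed in a fit of the 2 groups alone (0.125 and 0.0864) and with group-wise weights (0.115 and 0.232, limma). The hormone-sensitive lipase Lipe fell (-1.43 ± 0.48, adjusted p = 0.0138, limma), but not without aged library 2 (0.0602) or library 3 with HEP14 (0.0557), in a fit of the 2 groups alone (0.0676) or with group-wise weights (0.138). Of 7 receptors of fat hormones 4 rose, among them the adiponectin receptors Adipor1 (2.24 ± 0.30, adjusted p = 4.87e-06) and Adipor2 (1.72 ± 0.39, 0.000761, limma). Adipor1 scored 0.19, 0.34, 0.38 and 0.70 in aged libraries with HEP14, against -2.7, -1.99, -1.46 and -1.21 in aged libraries, with no overlap. Cdh13, of the same list, went the other way without passing, at -0.41 ± 1.16 with HEP14 against 0.46 ± 1.25 in aged ovaries. Of 7 other droplet proteins 3 rose and 1 fell. Those that rose were Fitm2 (1.96 ± 0.29, adjusted p = 1.38e-05), Plin2 (1.85 ± 0.32, 6.42e-05) and Plin3 (1.83 ± 0.36, 0.000229, limma), all made in many cell types. Bscl2 went the other way, at -0.43 ± 0.36 with HEP14 against 1.62 ± 1.07 in aged ovaries. Of 8 transcription factors of adipocyte formation 3 rose and 3 fell, with Cebpa among those that rose (1.63 ± 0.40, adjusted p = 0.00146, limma). Of 10 endothelial genes 4 rose, among them Kdr (2.29 ± 0.44, adjusted p = 0.000165) and Cdh5 (2.12 ± 0.44, 0.000324, limma). The count was 7 without aged library 1. Vwf and Eng went the other way without passing. Vwf scored -1.19, -1.32, 0.23 and -1.25 with HEP14, against 2.07, -1.38, -1.07 and -1.06 in aged libraries. Eng scored 0.04, 0.70, -0.33 and 1.63 with HEP14, against 1.1, 2.09, 0.18 and 0.54 in aged libraries.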

How the data were processed

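Per the labels' protocols, TRIzol extracts of ovarian tissue were sequenced on an Illumina NovaSeq instrument. The submitters' processing notes name DESeq2 1.20.0, HISAT2 2.0.5 and featureCounts 1.5.0-p3; the sources used here give no roles, genome build or strand setting. The authors deposited gene-wise scores (mean 0, SD 1) of 17651 genes in 20 libraries; what was scaled and how genes were chosen is not stated, and depth is unknown.

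Gene IDs were matched to GENCODE release M21 (17630 matched, 21 did not); no annotated gene overlaps a member on GRCm38. All genes were fitted with limma 3.58.1 (R 4.3.3), with 1 coefficient per group over all libraries, no trend, and p-values adjusted over all genes of a comparison by Benjamini-Hochberg, with a threshold of 0.05; the fit was tested on simulated data. Alternatives were a fit of the compared groups alone, group-wise weights, equal library medians, a replicate block, robust moderation and leaving out each library. The 20 gene lists, that of the members included, were chosen with earlier results of these data known. All members were named, and from each list hallmark genes and up to 3 genes with the smallest adjusted p among those that passed; not every gene this rule took is given. The likeness search left out predicted genes and pseudogenes.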

Additional observations from a re-analysis of the deposited data

Results flagged for a closer look

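Over 55 groups of 4 libraries examined (10 members and their mean in 5 groups), 2 held a library far from the other 3; chance gives about 1 in 20 such groups. For Lep in adult ovaries, library 2 scored -0.26, while the other 3 lay between -0.63 and -0.60, at or close to the shared lowest value. For Pck1 in aged ovaries with HEP14, library 3 scored -0.50, while the other 3 lay between -0.76 and -0.73, again at or close to the shared lowest value.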

How the results depend on the processing

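Over the 70 results of members (10 genes in 7 comparisons), direction and side of the threshold were kept in 68 with robust moderation, 67 with a replicate block, 64 in fits of the compared groups alone, 60 with group-wise weights, 56 with library medians set equal, and in 551 of 640 results when leaving out single libraries. With the groups alone and with weights, the genes called numbered 3789 and 5174 in adult against young ovaries (1751 as reported) and 5576 and 6454 in aged with HEP14 against young ovaries (2798); with the groups alone and with the block, 0 genes (1 as reported) passed in adult with HEP14 against adult ovaries. Members called lower in aged against young ovaries were 4 with weights and 5 with equal medians (8 as reported). Members called higher in aged against adult ovaries were 0 with weights and 4 with equal medians (1). Members called lower in aged with HEP14 against aged ovaries were 0 with the groups alone, 0 with weights, 6 with equal medians and 1 with the block (3). The test of the difference between ages gave 2 with equal medians (0). Equal medians reversed Pck1 in aged against young ovaries (0.075) and Plin1 in aged against adult ovaries (0.061). The cause was not tested.

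Leaving out single libraries gave 628 to 1475 genes called in adult against young, 0 to 4 in adult with HEP14 against adult and 1520 to 3318 in aged with HEP14 against young ovaries. Members called higher ran from 1 to 4 in aged against adult ovaries, and those called lower from 0 to 5 in aged with HEP14 against aged ovaries and from 0 to 3 for the difference between ages. Signs turned for some differences, not all of them near 0. Those were Lipe in adult against young (-0.0066 to 0.69) and Pck1 in aged against young (-1.08 to 0.10, with -0.35 as reported). In aged against adult ovaries they were Plin1 (-0.51 to 0.19) and Lpl (-0.018 to 0.73, with 0.37 as reported). In adult with HEP14 against adult ovaries they were Lep (-0.026 to 0.12), Cidec (-0.0013 to 0.35) and Lpl (-0.37 to 0.081). The sign of Lpl also turned in aged with HEP14 against aged ovaries (-0.61 to 0.13). For the difference between ages, Plin1 (-0.59 to 0.33) and Lpl (-0.54 to 0.21) turned.

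The replicate numbers share no stated source. Same-numbered libraries of the groups compared had correlations of their deviations from -0.19 to 0.16. Of the 4 libraries in a group, 0 to 2 matched their own number best, depending on the pair of groups. No full pairing was seen, but this check cannot exclude a shared batch or a partial pairing. With the replicate block, Cfd (0.0513) and Pck1 (0.0512) missed the threshold in aged with HEP14 against aged ovaries, and Pck1 (0.0544) in aged with HEP14 against young ovaries.

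Scores limit every value here: they hold no level, no fold and no depth, the 4 aged libraries carry the widest spread, and a gene at its shared lowest value has no measured difference below it.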
